A study of Mus musculus with 6 samples.

Results

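Voltage-gated sodium channels open when a muscle or nerve cell is depolarised and let in the sodium current that starts its action potential. Each channel is built around a large alpha subunit that forms the pore, and is joined by small beta subunits with a single membrane span, which act as adhesion molecules and change how the channel is placed and gated. Fibroblast growth factor homologous factors, such as Fgf13, stay inside the cell, bind the tail of the alpha subunit and alter its inactivation. In heart muscle these channels drive the fast upstroke of the action potential and its spread, and calcium/calmodulin-dependent protein kinase II (CaMKII) is known to phosphorylate them.

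Described here are 7 of the 35976 genes counted in mouse hearts: the alpha subunit genes Scn4a, Scn7a and Scn3a, the beta subunit genes Scn3b, Scn2b and Scn4b, and Fgf13. They were picked by gene symbol, as sodium channel subunits and a partner protein; other subunit genes enter below as counts of a list. The hearts came from WT mice in both groups. The edited group (sgRNA7, 3 libraries) had received an adeno-associated virus, labelled AAV-MYL2-TadA8e-Sauri-U6-Camk2d sgRNA7, that by its name carries TadA8e, an adenine base editing enzyme, behind MYL2, a heart muscle gene whose promoter is used to keep expression in that tissue, and a guide against Camk2d, a CaMKII gene. The control group (3 libraries) was untreated, so effects of viral delivery, of the enzyme and of the Camk2d edit cannot be told apart. Age, sex, viral dose and the part of the heart are not given in the labels, and they do not state whether replicates were separate animals. The p-values therefore measure only the spread between these libraries, which may be technical.

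Total counts per library lay between 17062412 and 23097998, so that 1 read was worth 0.0426 to 0.0598 CPM (counts per 1000000). Levels are given as CPM after scaling of the libraries by edgeR's TMM factors. Changes are log2 values, edited over control, with standard errors (SE) from edgeR's quasi-likelihood test, adjusted by the Benjamini-Hochberg method over 14879 tested genes, with 0.05 as the threshold. Camk2d, the targeted gene, was at 226, 220 and 224 CPM in the controls and at 138, 130 and 164 CPM in the edited hearts (adjusted p = 4.76e-04), and the groups did not overlap. Controls 1 and 3 held little atrial RNA: the atrial light chain Myl7 was at 6.88 and 0.209 CPM there, against 332 CPM in control 2 and 371 to 914 CPM in the edited hearts.

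Of the 7 genes, 1 differed between the groups. Scn4a fell to 50.1% of its control level in edited hearts, while 5 others did not pass the test, and Scn4b was too scarce to be tested. Among all tested genes 9.66% passed in either direction, 4.93% as higher and 4.74% as lower. The libraries of the groups did not overlap for Scn4a and Scn2b, as for 29.3% of all tested genes. The 6 tested genes had a median log2 change of 0.09, beside 0.00 over all tested genes. None of the 6 rose in edgeR's test. At an unadjusted p under 0.05 there was 1 (Scn2b), with DESeq2 0 and with limma voom 1. Here and below, voom is limma's voom with quality weights on the libraries.

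**Figure D1:**
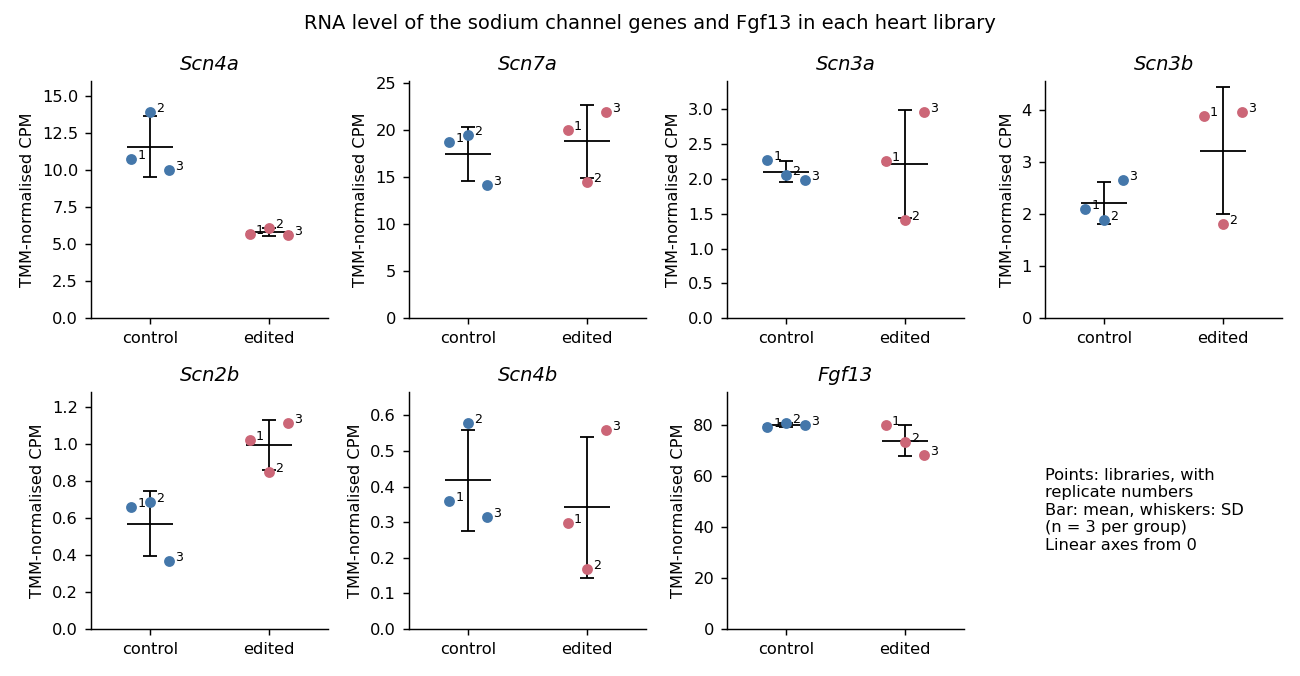
TMM-normalised CPM (linear axes from 0) of the 7 genes in 3 control (blue) and 3 edited (red) heart libraries; points are libraries with their replicate numbers, the bar is the mean and the whiskers the SD (n = 3). The edited libraries lie below all controls for Scn4a and above all controls for Scn2b, and the groups overlap for the other 5 genes.

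The alpha subunits come first. Scn4a encodes the main sodium channel of skeletal muscle, Scn3a a channel best known from the developing brain, and Scn7a an atypical relative, known as a sodium-level sensor of glia and found in Schwann cells, that does not open on depolarisation as the others do.

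Members of a gene family can be alike enough for reads to match more than 1 gene, and the treatment of such reads is not given in the sources used here. In GENCODE M21, 0.072% of the 50-base windows of Scn4a transcripts also occur in a transcript of another gene, 6.49% of those of Scn3a and 0% of those of Scn7a. For the beta subunits the shares are 1.01% for Scn2b and 0% for Scn3b and Scn4b, and for Fgf13 0.747%. The counts of Scn3a are therefore the least certain in this respect. By the exon coordinates deposited with the counts (mm10), 0 other genes share exon bases with any of the 7.

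Scn4a (chr11:106317545-106365552, minus strand) was at 10.8, 13.9 and 10.02 CPM in controls 1, 2 and 3, from 180, 264 and 192 reads. In the edited hearts it was at 5.67, 6.11 and 5.64 CPM, from 133, 108 and 101 reads. The lowest control was well above the highest edited library, and the 3 edited libraries lay close together. The mean went from 11.6 ± 2.06 to 5.81 ± 0.261 CPM (SD, n = 3), a log2 change of -0.996 (SE 0.13), or 41.7% to 60.3% of the control level at ±2 SE. In edgeR's quasi-likelihood test the adjusted p was 6.86e-04, the 68th smallest p among the tested genes. The groups did not overlap, edited below control, for 14.7% of tested genes. A second test, whether the change exceeds 1.5-fold, was not passed (edgeR's glmTreat, adjusted p = 0.135), as it was by 0.289% of tested genes.

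The fall of Scn4a did not rest on 1 library. Under the 16 alternatives it lay between -1.27 and -0.84, past the threshold in each, with adjusted p from 1.01e-12 to 0.00544. It was -1.27 (SE 0.15) with Myl7 as a covariate, a setting in which 0.847% of tested genes passed. Against control 2 alone, a comparison whose spread comes from the 3 edited libraries, it was -1.25 (SE 0.16), and 1.14% of tested genes passed. Control 2, the highest control, set part of the size: without it the change was -0.84 (SE 0.12).

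**Figure D2:**
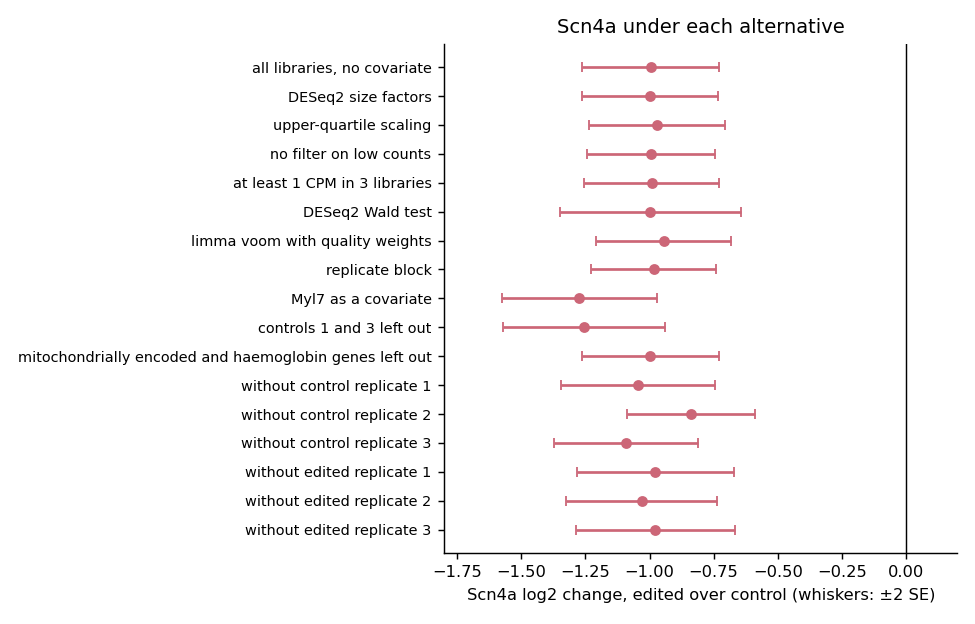
Log2 change of Scn4a, edited over control, with ±2 SE whiskers, in the comparison of all 6 libraries and under each of 16 alternatives (rows). All points lie between -1.27 and -0.84, and no whisker reaches 0.

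As Scn4a is a skeletal muscle gene, markers of that tissue were read beside it. The 12 skeletal muscle markers, among them Tnni2 and Tnnt3, summed to 23.5 to 51.0 CPM in controls and 26.7 to 43.9 CPM in edited hearts, so the groups overlapped, and 7 of the 12 were too scarce to be tested. Most of that sum was Myl1, a light chain that was highest in control 2 and edited 3, the library of each group with the most Myl7. Tnni2, a fast troponin, was at 2.63, 3.37 and 3.18 CPM in controls and 1.75, 1.64 and 2.46 CPM in edited hearts, every edited library below every control (log2 -0.66, SE 0.21, adjusted p = 0.0652 by edgeR). The 5 tested markers had a median log2 change of -0.44, and in 3 of them the edited libraries lay below all controls. Of these 5, 0 passed in edgeR's test (1 lower at an unadjusted p under 0.05, 0 with DESeq2 and 0 with voom). Myh1, a defining fast myosin, had at most 3 reads in any library. The part of these genes in the Scn4a result was not tested.

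Heart muscle and conduction markers also differed. The 10 markers of heart muscle summed to 81694 to 84501 CPM in controls and to 69148 to 73405 CPM in edited hearts, with 5 of 10 lower in edgeR's test (8 with DESeq2 and 8 with voom), 0 higher and a median log2 change of -0.24. Scn4a changed by more than any of them, since the lowest, the calcium pump inhibitor Pln, had -0.43. In bulk tissue, fewer cells of a type and less RNA per cell cannot be told apart. Of 11 tested conduction markers, 3 fell and 0 rose in edgeR's test (1 higher at an unadjusted p under 0.05, 0 with DESeq2 and voom). Cntn2, an adhesion protein of conduction cells, went from 19.6, 14.6 and 15.9 CPM in controls to 5.54, 6.73 and 4.41 CPM in edited hearts. The summed conduction list, led by Smoc2, Gja5 and Tbx3, did not separate the groups, at 183 to 211 CPM against 172 to 198 CPM. The part of these markers in the Scn4a result was not tested.

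The genes most like Scn4a over the 6 libraries, by Pearson correlation of log2 CPM, were Smoc2 (r = 0.998), Slc22a23 (r = 0.997) and the microRNA gene Mir1839 (r = 0.994). Smoc2, a matricellular protein gene on the conduction list, changed by far less, from 90.1 ± 3.13 to 79.4 ± 0.304 CPM (SD, n = 3). Slc22a23, a gene of the solute carrier family, went from 22.7 ± 2.20 to 15.1 ± 0.0697 CPM. With 6 points and 12813 genes ranked, many reach a high value, and 94 genes had r of at least 0.95. All libraries share the contrast between the groups, so these values are a description.

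Scn7a (chr2:66673426-66784910, minus strand) was the most abundant of the 3 alpha subunit members, at 18.8, 19.5 and 14.2 CPM in controls and 19.999, 14.5 and 21.9 CPM in edited hearts. Edited 1 and 3 lay above all controls, and the groups overlapped through edited 2, which with control 3 was low. The log2 change was 0.11 (SE 0.18, adjusted p = 0.780 by edgeR), which at ±2 SE spans 83.9% to 139% of the control level. Its sign turned without control 3 (-0.02) or edited 3 (-0.01), against control 2 alone (-0.05) and when Myl7 was a covariate (-0.19).

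Scn3a (chr2:65457118-65567527, minus strand) was scarce, at 2.27, 2.05 and 1.98 CPM in controls and 2.26, 1.41 and 2.96 CPM in edited hearts, from 25 to 53 reads. The controls agreed closely, and the edited libraries lay on both sides of them. The log2 change of 0.08 (SE 0.25, adjusted p = 0.894 by edgeR) leaves 74.5% to 149% of the control level at ±2 SE. Changes within that span were not detectable in these libraries. The SD of the edited libraries was 35.0% of their mean, beside 15.6% for counting error alone at the gene's mean count. Without edited 3 the log2 change was -0.17, and with Myl7 as a covariate -0.03.

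The share of each gene among the 3 alpha subunit members describes the fall of Scn4a in another way, since a lower Scn4a raises the share of the others. Counts were divided by gene length for this, since levels of different genes compare only per length. Scn4a made up 30.7%, 35.7% and 35.0% of the summed length-scaled counts in controls and 18.1%, 24.9% and 16.5% in edited hearts. Scn7a made up 64.0%, 59.9% and 59.3%, then 76.0%, 70.4% and 76.5%. Neither share overlapped between the groups. The mean share of Scn4a went from 33.8 ± 2.72% to 19.8 ± 4.47% (SD, n = 3), and the two-sided exact permutation test over the 20 arrangements gave p = 0.1, the smallest that 3 against 3 allows. Adjusted over the 6 shares tested, no p can pass. Scn3a held 4.34% to 7.10% in all libraries (exact permutation p = 0.4). These shares leave out the other alpha subunits, so they do not give the make-up of the channels of the heart.

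**Figure D3:**
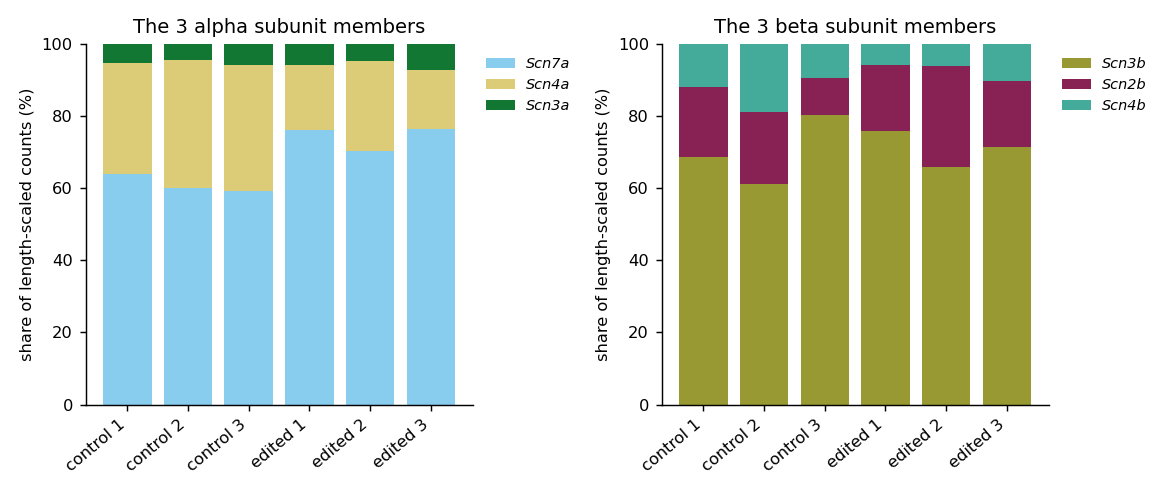
Share (%) of each gene in the length-scaled counts of the 3 alpha subunit members (left) and the 3 beta subunit members (right), 1 bar per library. The Scn4a band is 30.7% to 35.7% in controls and 16.5% to 24.9% in edited libraries; the beta subunit bands overlap between the groups.

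The beta subunits were all scarce. Scn2b encodes a beta subunit that is bound to the alpha subunit by a disulfide bridge. It had 11, 13 and 7 reads in controls (0.658, 0.685 and 0.365 CPM) and 24, 15 and 20 in edited hearts (1.02, 0.848 and 1.12 CPM). Every edited library was above every control, a pattern shared by 14.6% of tested genes. The estimate was log2 0.81 (SE 0.32, edgeR adjusted p = 0.139). It went past the threshold with voom alone (1.02, adjusted p = 0.0363), a setting in which 16.1% of tested genes passed. It was 0.34 (SE 0.45) with Myl7 as a covariate, and control 3 was the lowest library: without it the change was 0.57 and without control 2 0.98. Pooled, 59 reads against 31 give a ratio per depth of 1.77, with an exact 95% interval of 1.13 to 2.83 that covers counting error only.

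Scn3b encodes a beta subunit that binds without such a bridge. It was at 2.09, 1.90 and 2.66 CPM in controls and at 3.88, 1.81 and 3.96 CPM in edited hearts. Edited 1 and 3 were above all controls, and edited 2 was below them. The log2 change was 0.55 (SE 0.28, adjusted p = 0.257 by edgeR), and 1 library decided the call: without edited 2 it was 0.82 (SE 0.20; edgeR adjusted p = 0.0191, against 0.0968 to 0.573 in the other alternatives). Scn3b also took the largest share of the beta subunit members, 70.1 ± 9.74% of length-scaled counts in controls and 71.1 ± 5.09% in edited hearts (exact permutation p = 0.9).

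Scn4b encodes a beta subunit bound by a disulfide bridge, whose cytoplasmic tail can block the open channel. It had 6, 11 and 6 reads in controls and 7, 3 and 10 in edited hearts, and did not pass the filter on low counts. The pooled levels were 0.419 CPM (exact Poisson 95% interval 0.266 to 0.629) and 0.339 CPM (0.207 to 0.523), and the intervals, which cover counting error only, overlapped. No difference was detectable at this depth. Scn2b (chr9:45117876-45130070) and Scn4b (chr9:45139042-45154061) are neighbours on the plus strand and 8.97 kb apart. Scn3b lies on the same chromosome and strand, at chr9:40269187-40291618.

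Within the edited group, Scn3b, Scn3a and Scn7a shared an order: each was lowest in edited 2 and highest in edited 3. The scarcer Scn2b (1.02, 0.848 and 1.12 CPM in edited 1, 2 and 3) and Scn4b (0.298, 0.170 and 0.558 CPM) had the same order, from few reads. Of 12 neuron markers, 9 were also lowest in edited 2, most of them scarce, and Uchl1, Dbh and Th were not. Stmn2, a growth-associated protein of neurons, was at 5.98, 4.85 and 4.65 CPM in controls and 18.3, 6.50 and 15.1 CPM in edited hearts. Tubb3, the neuronal tubulin, was at 1.26, 1.37 and 0.731 CPM, then 9.68, 1.98 and 10.7 CPM. Both were high in edited 1 and 3 and much lower in edited 2. The more abundant Uchl1, a neuronal ubiquitin hydrolase, was at 24.9, 26.8 and 26.6 CPM in edited 1, 2 and 3, and Dbh, an enzyme of noradrenaline synthesis, at 4.39, 5.37 and 5.64 CPM, without that split. The 12 neuron markers summed to 34.6 to 39.7 CPM in controls and 41.7 to 79.9 CPM in edited hearts; of 4 tested, Uchl1 rose and Dbh fell in edgeR's test (3 higher and 1 lower with DESeq2). The call of Uchl1 was lost without control 3 or edited 3 (edgeR adjusted p = 0.0856 and 0.0555). With Myl7 as a covariate both calls were lost (edgeR adjusted p = 0.239 for Uchl1 and 0.124 for Dbh). The log2 changes there were 0.37 (SE 0.13) and -0.67 (SE 0.19), beside 0.38 (SE 0.08) and -0.87 (SE 0.14) with no covariate. Both calls were also lost against control 2 alone, where the changes were 0.44 and -0.69. The 10 markers of Schwann cells and glia summed to 22.2 to 39.9 CPM in controls and 36.8 to 51.8 CPM in edited hearts, with 1 of 9 tested higher in edgeR's test (Gfra3, adjusted p = 0.049), 0 with DESeq2 and 3 with voom. No marker of either list was at 0 in all libraries. The part of these cells in the levels of the sodium channel genes was not tested.

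**Figure D4:**
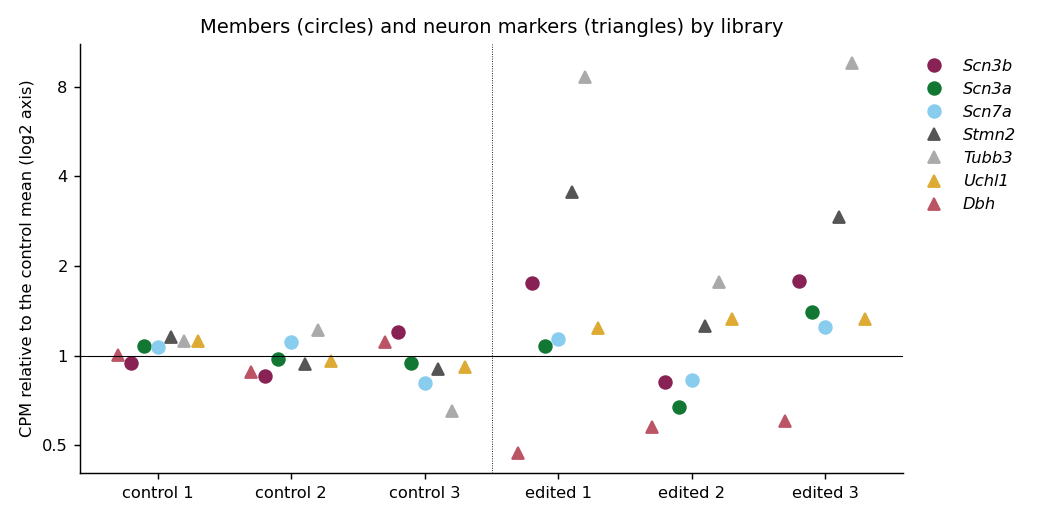
CPM of Scn3b, Scn3a and Scn7a (circles) and the neuron markers Stmn2, Tubb3, Uchl1 and Dbh (triangles) in each library, divided by the gene's control mean (log2 axis, labelled as ratios). In the edited group the 3 sodium channel genes, Stmn2 and Tubb3 are lowest in edited 2, while Uchl1 is highest there and Dbh is lowest in edited 1.

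Other tissue markers moved with the groups too. The 10 mesothelial markers summed to 29.2 to 29.7 CPM in controls and 36.0 to 62.3 CPM in edited hearts, with 8 higher and 1 lower, and the highest sum was in edited 2. The 8 atrial markers summed to 198 to 2156 CPM in controls and 1424 to 2992 CPM in edited hearts, led by Nppa, Myl7 and Myl4. Bmp10, on the same list, went the other way, at 0.0598, 102 and 0.0522 CPM in controls and 0, 0 and 0.112 CPM in edited hearts. The atrial RNA of control 2 was thus not alike that of the edited hearts in every marker, which limits the settings based on Myl7 and on control 2. Fibroblast markers, led by Col3a1, gave 2 higher and 0 lower of 10, with a median log2 change of 0.15. Of 7 tested markers of smooth muscle and pericytes and 8 of endothelium, 0 passed in edgeR's test. At an unadjusted p under 0.05 there were 2 and 0, with DESeq2 3 and 0, and with voom 2 and 0. Their part in the levels of the sodium channel genes was not tested.

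Fgf13 (chrX:59062139-59585572, minus strand) was by far the most abundant of the 7 genes. It was at 79.2, 81.0 and 79.9 CPM in controls and 80.3, 73.3 and 68.3 CPM in edited hearts. Edited 1 lay among the controls, while edited 2 and 3 lay below them. The mean was 80.0 ± 0.913 CPM in controls and 74.0 ± 5.98 CPM in edited hearts (SD, n = 3), a log2 change of -0.11 (SE 0.06, adjusted p = 0.305 by edgeR). At ±2 SE this spans 84.7% to 101% of the control level, a span that does not meet that of Scn4a (41.7% to 60.3%). Fgf13 has several alternative first exons, and counts over the whole gene do not tell these forms apart.

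Per length, the order in controls was Fgf13 (22.0 ± 0.251 CPM per kb), Scn7a (2.39 ± 0.394), Scn4a (1.32 ± 0.235), Scn3b (0.519 ± 0.0932), Scn3a (0.197 ± 0.0141), Scn2b (0.121 ± 0.0377) and Scn4b (0.0983 ± 0.0335; SD, n = 3). Of neighbours in that order, only Scn2b and Scn4b overlapped over the control libraries. In edited hearts Scn4a (0.663 ± 0.0298 CPM per kb) lay within the range of Scn3b (0.424 to 0.928), whose mean was 0.754 ± 0.286. Scn2b (0.212 ± 0.0290) also lay within the range of Scn3a (0.133 to 0.278). Lengths are the summed exons of all forms in the authors' annotation, which lowers the value of genes with many forms.

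The other genes of sodium channels and their partners were read from lists of family members, scaffolds, enzymes and regulators. Of 9 other subunit and sodium leak channel genes in the table, 4 had enough reads for the test, and 1 rose and 0 fell in edgeR's test (1 lower at an unadjusted p under 0.05, 1 with DESeq2 and 1 with voom). The riser was Nalcn, a sodium leak channel that is open at rest. It had 1, 2 and 4 reads in controls and 17, 13 and 14 in edited hearts (adjusted p = 0.00467), and no control reached an edited library. Pooled, 44 reads against 7 give a ratio of 5.84, with an exact 95% interval of 2.61 to 15.4 for counting error only. With Myl7 as a covariate its call was lost (adjusted p = 0.0936 by edgeR), at a log2 change of 3.06 (SE 0.79). With no covariate the change was 2.49 (SE 0.46). The call was also lost against control 2 alone, where the change was 2.76.

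Of the 3 other homologous factors of the Fgf13 family, 0 passed in edgeR's test, at an unadjusted p under 0.05, with DESeq2 or with voom. Their estimates ran from 0.05 to 1.90 on the log2 scale, and the highest is of a gene not described here. Fgf11 was at 7.72 ± 0.979 CPM in controls and 7.99 ± 1.02 CPM in edited hearts, and Fgf14 at 3.08 ± 0.844 and 3.87 ± 0.571 CPM (SD, n = 3). The log2 changes of these were 0.05 (SE 0.13) and 0.33 (SE 0.20), and the groups overlapped for both. Fgf14 turned to -0.06 in both settings that bear on atrial RNA, and Fgf11 to -0.06 without edited 3.

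Among 18 scaffolds and membrane partners, 3 fell and 1 rose, with a median log2 change of -0.08. Tcap, a titin cap protein of the Z-disc, went from 316 ± 15.9 to 236 ± 16.6 CPM (log2 -0.42, SE 0.06). Kcnj2, an inward rectifier potassium channel that holds the resting potential, went from 72.1 ± 1.34 to 60.3 ± 3.83 CPM. Ank2, an ankyrin that anchors membrane proteins, went from 138 ± 5.13 to 116 ± 11.9 CPM. Sntb1, a syntrophin that links channels to the dystrophin complex, rose from 24.5 ± 1.83 to 32.7 ± 4.12 CPM (SD, n = 3). All 18 estimates were under 1.5-fold. The calls of Tcap, Kcnj2, Ank2 and Sntb1 were lost with Myl7 as a covariate (edgeR adjusted p = 0.0898, 0.296, 0.186 and 0.308). Their log2 changes there were -0.34, -0.24, -0.32 and 0.35, beside -0.42, -0.26, -0.25 and 0.42 with no covariate, and the SE of each was larger. Single libraries ended calls too: control 1 or 3 for Kcnj2 and Sntb1, and any library but edited 1 for Ank2 (adjusted p up to 0.0973, 0.0756 and 0.125). Ank2 also lost its call with upper-quartile scaling of the libraries and with the replicate number as a block (edgeR adjusted p = 0.0559 and 0.0537).

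Of 16 enzymes and trafficking factors 3 fell: Camk2d itself, Nedd4l, a ubiquitin ligase that removes sodium channels from the membrane (70.7 ± 2.45 to 60.3 ± 4.70 CPM), and Prkaca, the catalytic subunit of protein kinase A (369 ± 12.5 to 318 ± 7.53 CPM; SD, n = 3). None rose in edgeR's test, at an unadjusted p under 0.05, with DESeq2 or with voom. Among 12 regulators of transcription and RNA, 1 rose and 0 fell in edgeR's test (2 lower at an unadjusted p under 0.05, 0 with DESeq2 and 2 with voom). The riser was Hey2, a transcriptional repressor that acts downstream of Notch and is expressed in ventricular muscle, from 7.87 ± 0.832 to 10.6 ± 1.20 CPM. Nedd4l and Hey2 each lost the call without any 1 library other than edited 3 (edgeR adjusted p up to 0.198 and 0.194), and Prkaca without control 1, control 3 or edited 3 (up to 0.104). All 3 lost it with Myl7 as a covariate (edgeR adjusted p = 0.459, 0.459 and 0.345), and Hey2 also with DESeq2 (adjusted p = 0.0905). Nedd4l and Prkaca lost it with the replicate number as a block (edgeR adjusted p = 0.0547 and 0.0665). Upper-quartile scaling of the libraries also ended the call of Nedd4l (edgeR adjusted p = 0.0622). With Myl7 the log2 changes of Nedd4l, Hey2 and Prkaca were -0.19, 0.35 and -0.17, with larger SE. With no covariate they were -0.23, 0.43 and -0.21. The 3 calls were also lost against control 2 alone, where the changes were -0.18, 0.39 and -0.16.

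**Figure D5:**
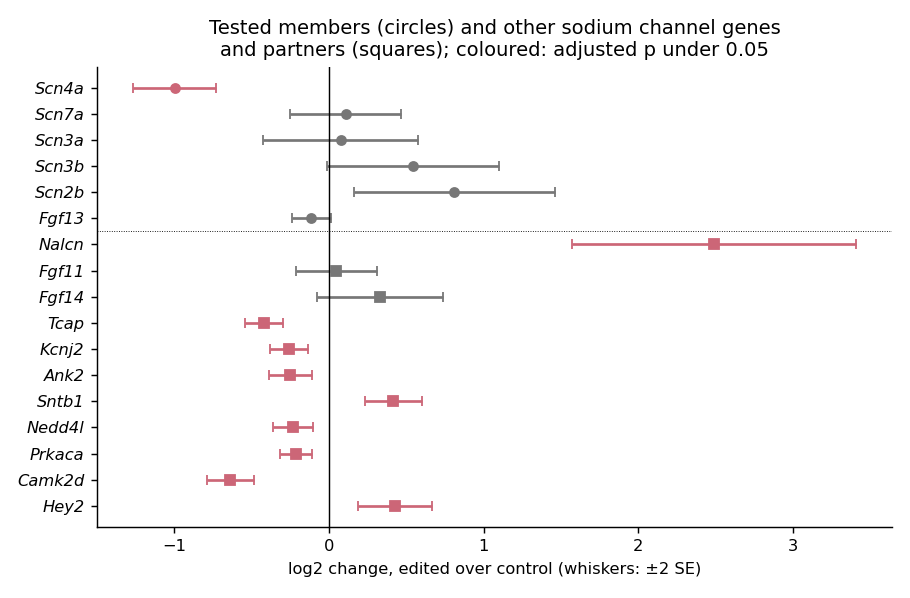
Log2 change, edited over control, with ±2 SE whiskers for the 6 tested members (circles) and for other genes of the sodium channel lists (squares); red marks an adjusted p under 0.05 in edgeR's quasi-likelihood test. Scn4a at -0.996 is the lowest point, and Nalcn at 2.49, from few control reads, the highest.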

How the data were processed

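Mouse heart RNA in 6 libraries, 3 edited and 3 untreated, was compared. The authors deposited raw read counts per gene for 35976 genes, which per the submitters' processing notes were made with FastQC, cutadapt, STAR and featureCounts on mm10; versions, strand setting and the treatment of reads that match several genes were not given in the sources used here. Each library has 2 deposited count columns, identical in all genes, and 1 was used. Gene lengths are those deposited with the counts.

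The filterByExpr function of edgeR 4.0.16 (R 4.3.3) left 14879 genes, TMM factors scaled the libraries, and a robust quasi-likelihood fit with 1 term, the group, gave the tests. Shares were compared with a two-sided exact permutation test. The code was tested on simulated data. Alternatives were other scalings, filters and tests (DESeq2 1.42.0, limma 3.58.1 voom with quality weights), a replicate block, Myl7 as a covariate and libraries left out. Coordinates are those deposited with the counts, and transcripts searched for shared windows are from GENCODE M21, on the same build. Protein sequences were not used here.

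The 7 genes, the lists and the alternatives that concern atrial RNA were chosen with earlier results of these data known. The rule for named genes takes the 7 genes, Camk2d, list genes past the threshold, other subunits and homologous factors, the 3 highest markers of each cell type list, and the 3 genes most like each member past the threshold; some genes it picks are not reported here. Marker genes named beyond it were chosen after their values were seen.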

Additional observations from a re-analysis of the deposited data

How the results depend on the processing

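Scn4a kept its direction and its call in 16 of 16 alternatives (without 1 library -1.09 to -0.84). The signs of Scn3a, Scn7a, Scn4b, Fgf11 and Fgf14 were not fixed by these data. For Scn4b, which was not tested, the log2 ratio of mean CPM was -0.29. It was 0.026 without control 2, 0.039 without edited 2 and -0.83 without edited 3. Scn3a was -0.027 with Myl7 as a covariate and -0.17 to 0.30 without 1 library (lowest without edited 3). Scn7a was -0.19 with Myl7 as a covariate, -0.046 with controls 1 and 3 left out and -0.024 to 0.26 without 1 library. Fgf11 was -0.060 to 0.15 without 1 library, and Fgf14 was -0.061 with Myl7 as a covariate and -0.055 with controls 1 and 3 left out. Scn2b passed with voom (1.02), and Scn3b was 0.38 to 0.82 without 1 library. Camk2d lost its call with controls 1 and 3 left out (-0.60, adjusted p = 0.0569 by edgeR, from 1 control library). The causes were not tested.

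The number of genes past the threshold was 1438, and 2239 with no filter on low counts, 2398 with voom, 126 with Myl7 as a covariate, 169 with controls 1 and 3 left out and 446 (without control 3) to 1553 without 1 library. Changes above 1.5-fold numbered 43, and 192 with no filter, 80 with the replicate block, 5 with Myl7 as a covariate, 11 with controls 1 and 3 left out and 18 (without control 1) to 70 without 1 library. Replicate numbers showed no sign of pairing the samples: the correlations of same-numbered libraries' deviations were 0.02, -0.10 and -0.08. Those of differently numbered libraries ran from -0.06 to 0.11. With 3 libraries per group these values cannot exclude a pairing. With the number as a block 1077 genes passed, and Scn4a was at -0.98. Depth limits Scn2b and Scn4b, which had at most 24 reads in any library.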
